A study of Homo sapiens with 9 samples.

Results

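The genes described here are 33 genes of the unfolded protein response and of protein folding in the endoplasmic reticulum (ER). They were matched by Ensembl identifier among the 60308 gene identifiers of the count files, and all 33 were among the 18435 genes with enough reads to be tested. Levels are CPM values, which scale a gene's reads to the size of its library, unless TPM is named. Cells were MCF10A, an immortalised human breast epithelial line, and all 9 cultures carried a MYC plasmid (pBABE-hygro-MYC) and a plasmid for mutant PI3K (pMN-IRES-GFP-PI3KH1047R). They differed in the hairpin of a doxycycline-inducible plasmid (pLKO-tetON-puro). The groups were shG9a_1 and shG9a_4, each with a hairpin targeting EHMT2, which encodes the histone methyltransferase G9a, and shSCR with a scrambled hairpin. Each group had 3 replicates, which the series' design text calls biological, and every culture, shSCR included, received 2 µg/mL doxycycline for 72 hours. No cells without MYC and PI3KH1047R, without doxycycline or with an ER stress agent were analysed here. The comparison asked whether mRNA of the ER folding machinery differed after knockdown of EHMT2 in these transformed cells.

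The unfolded protein response is the programme by which cells adjust the ER to its load of client proteins. Its 3 classical sensors sit in the ER membrane: the kinase and nuclease IRE1 (gene ERN1), the kinase PERK (gene EIF2AK3), and ATF6, which is cleaved to release a transcription factor. The chaperone BiP (gene HSPA5) binds the sensors' luminal parts and is itself a target of the response, as are disulfide isomerases, lectin chaperones and genes of ER-associated degradation (ERAD), which returns misfolded proteins to the cytosol. IRE1 splices the XBP1 mRNA, PERK phosphorylates a translation factor, and ATF6 is cut after transport to the Golgi, none of which is visible in counts per gene. What the counts hold is the mRNA of the sensors and of their targets.

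No gene of the set passed an adjusted p of 0.05 in any comparison between the 3 groups. HSPA5, the usual readout of the response, differed from shSCR by a log2 fold change of 0.04 in shG9a_1 (95% interval −0.20 to 0.28) and 0.02 in shG9a_4 (−0.22 to 0.26). The widest fold changes over shSCR were 0.31 (DNAJB9) in shG9a_1 and 0.18 (SSR1) in shG9a_4. In each comparison 32 of the 33 intervals lay within 0.5 of 0 on the log2 scale, the exception being that of DNAJB9.

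Libraries held 53065611 to 76958831 reads in genes and 26759 to 28346 detected genes. EHMT2 (ENSG00000204371.11) had 17.6, 22.6 and 21.02 CPM with shG9a_1 and 32.1, 27.2 and 33.5 CPM with shG9a_4, against 51.1, 45.2 and 45.4 CPM in shSCR. It was lower in all 6 hairpin libraries than in all 3 shSCR libraries. By edgeR's quasi-likelihood test it fell under shG9a_1 (log2 fold change −1.21 with SE 0.11, adjusted p = 0.00766), and it did not pass in shG9a_4 (−0.61, SE 0.11, adjusted p = 0.259). All 11 markers of basal MCF10A cells were detected in every library. They summed to 5922 to 7776 CPM in shG9a_1, 4805 to 7029 CPM in shG9a_4 and 4814 to 6706 CPM in shSCR. KRT14 among them averaged 60.1 CPM in shG9a_1 and 54.2 CPM in shG9a_4, against 33.4 CPM in shSCR, and its groups overlapped. It passed in neither hairpin by the same test, but in both with the replicate number as a block (adjusted p = 0.00576 in shG9a_1 and 0.0149 in shG9a_4). Plasma cells, a cell type with a very active response, left no trace above 0.133 CPM in the sum of their 7 markers, and their receptor TNFRSF17 was at 0 in every library. The 7 fibroblast markers summed to 197 to 421.4 CPM in shG9a_1, 140 to 416.8 CPM in shG9a_4 and 159.1 to 336.6 CPM in shSCR, nearly all of it DCN, with COL1A2 at a mean of 0.068 CPM or less in each group. The 7 luminal markers, mostly KRT8 and KRT18, summed to 431 to 594.2 CPM in shG9a_1, 403.1 to 520.8 CPM in shG9a_4 and 402.2 to 480.2 CPM in shSCR. The part of these markers in the results was not tested.

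Some induced genes of the response carry short promoter elements that the sensors' transcription factors are known to bind. Exact matches to such elements are shown, and they do not mark every known target. The ER stress response element (ERSE), bound by ATF6 together with NF-Y, was searched as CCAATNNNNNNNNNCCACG. ERSE-II, first described in HERPUD1 and also bound by ATF6, was searched as ATTGGNCCACG. The element UPRE, bound by XBP1, was searched as TGACGTGG. Both strands were read in RefSeq promoters of build GRCh38.p14, from 250 bases before to 50 bases after each start site, and no mismatch was allowed. Of the 33 genes, 31 had a promoter in that table, and PDIA3 and DERL1 had none. ERSE was found in 7 of the 31 genes (22.6%), against 25 of 27305 genes in the whole table (0.0916%). ERSE-II was found in 3 (9.68%), against 19 genes (0.0696%), and UPRE in 2 (6.45%), against 253 genes (0.927%). The 33 genes were chosen as genes of the response and of ER folding, and such elements were described in genes of the set such as HERPUD1. A higher share in the set was therefore fixed in advance and is no finding of these data. A match is a run of letters and not a measured binding site, and no match says only that these letters are not in the window.

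The 7 genes with ERSE are listed with the element in capitals and 5 flanking bases on each side, 5′ to 3′ on the strand of the gene. In CALR, CRELD2 and the near element of HSP90B1 the motif lies on the opposite strand, so its reverse complement is printed. The element of CANX falls within the windows of 3 listed start sites, and those of PDIA6 and XBP1 in some of several.
HSPA5, chr9:125241386-125241414, minus strand: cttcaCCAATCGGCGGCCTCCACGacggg
HSP90B1 far element, chr12:103930211-103930239, plus strand: cctgaCCAATCGGAAGGAGCCACGcttcg
HSP90B1 near element, chr12:103930316-103930344, plus strand: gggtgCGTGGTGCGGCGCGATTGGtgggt
CALR, chr19:12938379-12938407, plus strand: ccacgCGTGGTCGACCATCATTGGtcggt
CANX, chr5:179698773-179698801, plus strand: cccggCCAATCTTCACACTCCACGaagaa
CRELD2, chr22:49918549-49918577, plus strand: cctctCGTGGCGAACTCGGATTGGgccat
PDIA6, chr2:10812848-10812876, minus strand: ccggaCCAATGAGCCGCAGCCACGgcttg
XBP1, chr22:28800598-28800626, minus strand: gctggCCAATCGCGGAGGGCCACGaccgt

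The 3 genes with ERSE-II are shown in the same way. Those of SDF2L1 and HYOU1 are reverse complements.
HERPUD1, chr16:56932020-56932040, plus strand: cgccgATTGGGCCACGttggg
SDF2L1, chr22:21642109-21642129, plus strand: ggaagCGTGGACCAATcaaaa
HYOU1 far element, chr11:119057375-119057395, minus strand: cgtgaCGTGGTCCAATcccag
HYOU1 near element, chr11:119057269-119057289, minus strand: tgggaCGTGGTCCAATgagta

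The first base of these elements lay between 225 bases (CALR) and 9 bases (CANX, from the first of its 3 starts) before the start site. A match to UPRE overlapped the far ERSE-II of HYOU1, and the other match to UPRE was in SSR3. The element of HSPA5 began 66 bases before its start, and it is shown in its whole promoter because BiP is the reference gene of the response.
HSPA5 promoter, chr9:125241294-125241593, minus strand: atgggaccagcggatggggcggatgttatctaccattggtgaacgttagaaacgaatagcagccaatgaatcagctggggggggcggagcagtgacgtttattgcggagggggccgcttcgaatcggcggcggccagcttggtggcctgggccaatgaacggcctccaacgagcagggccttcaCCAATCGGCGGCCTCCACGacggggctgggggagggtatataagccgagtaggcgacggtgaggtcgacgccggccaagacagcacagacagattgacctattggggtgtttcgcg

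**Figure D1:**
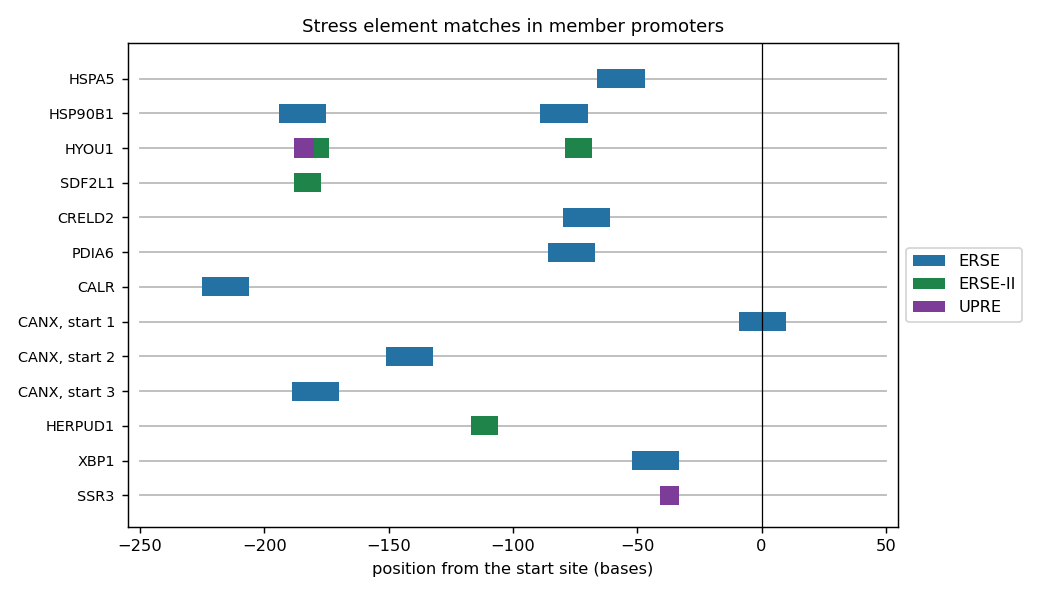
Positions of exact matches to ERSE, ERSE-II and UPRE (coloured boxes) in the promoters of 11 genes, in bases from the start site (x axis, 0 is the start). Rows are genes, with 3 listed starts for CANX. The matches begin between 225 and 9 bases before the start.

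Between them, the 33 genes took 1.11% of the reads in genes in shG9a_1, 1.12% in shG9a_4 and 1.085% in shSCR (means of 3 libraries). The summed level was 11600, 10840 and 10900 CPM with shG9a_1 and 11200, 11970 and 10530 CPM with shG9a_4, against 10970, 10910 and 10670 CPM in shSCR. The sums of the groups overlapped, and the highest and the lowest were both in shG9a_4. Per length of the gene's exons, in TPM, the order of the genes was led by the lectin and HSP90 chaperones. CANX (calnexin, a membrane lectin that holds glycoproteins until they fold) averaged 1385 ± 115 TPM over the 9 libraries (SD). HSP90B1 (GRP94, the ER form of HSP90) averaged 1038 ± 89.1 TPM, and CALR (calreticulin, the soluble partner of calnexin) 961 ± 84.9 TPM. The libraries of HSP90B1 and CALR overlapped in TPM, while those of CANX lay above both.

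The 4 disulfide isomerases, which form and reshuffle disulfide bonds in client proteins, lay close together at 329 to 396 TPM, and their libraries overlapped from each gene to the next. HSPA5 followed at 258 ± 32.7 TPM. The pore subunit of the translocon, SEC61A1, was at 330.1 ± 18.8 TPM, among the isomerases. The mRNA of XBP1 was at 133 ± 13.1 TPM. The sensors were lower, with ATF6 at 60.3 ± 6.55 TPM, ATF6B at 28.8 ± 1.2 TPM, EIF2AK3 at 18.8 ± 1.54 TPM and ERN1 at 5.35 ± 0.256 TPM. From CANX to ERN1 the means spanned 258.9-fold. In this order 8 of the 32 neighbouring pairs did not overlap over the 9 libraries, among them EIF2AK3 over CRELD2, and SYVN1, the ubiquitin ligase HRD1, over ERN1.

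**Figure D2:**
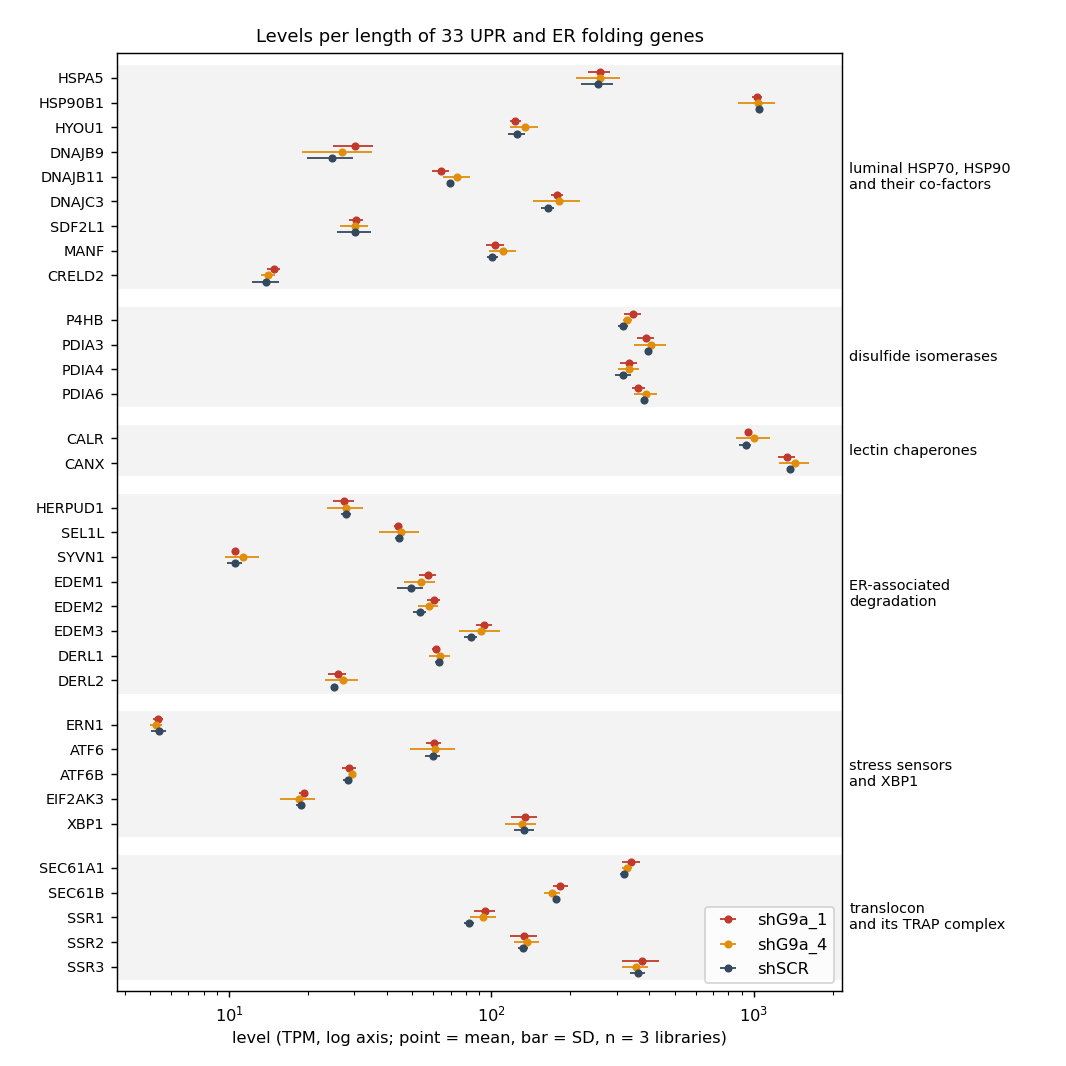
Levels of the 33 genes in TPM (log x axis), grouped by role. Points are means and bars the SD of 3 libraries, for shG9a_1 (red), shG9a_4 (orange) and shSCR (dark blue), and for each gene the 3 groups lie close together across a 258.9-fold range of means.

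In shG9a_1 over shSCR, 0 of the 33 genes passed an adjusted p of 0.05, where 7 of 18435 genes did (0.038%). Counts of small differences leaned to higher values in shG9a_1. The log2 fold change was above 0 in 27 genes (81.8%) and below 0 in 6, against 50.2% above 0 over all genes, and the median was 0.04, against 0.00086 over all genes. The number above 0 was 23 of 33 with upper quartile scaling, where the median of all genes moved to −0.01, and 22 of 33 without shG9a_1 replicate 1. All 3 shG9a_1 libraries lay above all 3 shSCR libraries in 8 genes (24.2%; 7.15% of all genes): DNAJC3, P4HB, EDEM1, EDEM2, EDEM3, DERL2, SEC61A1 and SSR1. In no gene of the set did they all lie below (7.53% of all genes). An unadjusted p under 0.05 was reached by 4 genes, all higher (4.34% of all genes were higher at that p). This number was 1 when replicate 1 or 3 of shSCR, or replicate 1 of shG9a_1, was left out. In that order, 733, 1083 and 1205 of all genes had such a p in either direction, against 1382 with every library. The median of the set was 0.02 without shG9a_1 replicate 1, 0.07 without shSCR replicate 2 and 0.06 without shG9a_1 replicate 3.

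**Figure D3:**
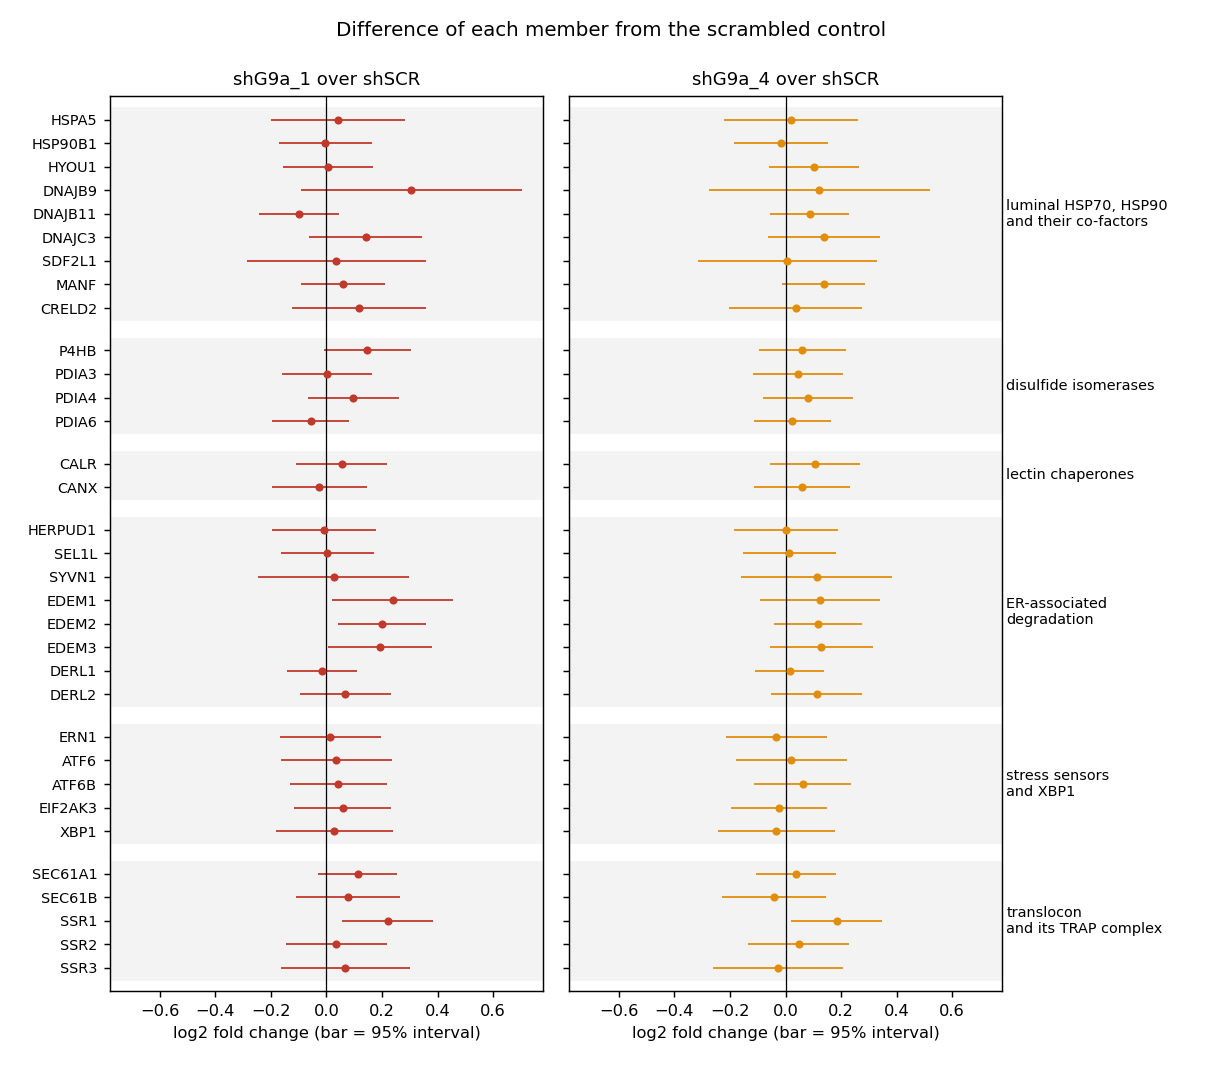
Log2 fold change of each of the 33 genes over shSCR (x axis) in shG9a_1 (left panel, red) and shG9a_4 (right panel, orange), with 95% intervals from the fit as bars and genes grouped by role. In shG9a_1 the bars of EDEM1, EDEM2, EDEM3 and SSR1 lie above 0, and in shG9a_4 that of SSR1, but no adjusted p was below 0.605.

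Of these 4 genes, 3 were the EDEM genes. EDEM1, EDEM2 and EDEM3 encode mannosidase-like proteins that trim the sugars of misfolded glycoproteins and so mark them for ERAD. EDEM1 had 119, 116.3 and 137 CPM with shG9a_1 and 102, 119.7 and 122 CPM with shG9a_4, against 94.1, 105 and 116.1 CPM in shSCR. Its 3 shG9a_1 libraries lay just above the highest shSCR library, at 116.3 against 116.1 CPM at the nearest point, while the shG9a_4 libraries overlapped those of shSCR. The log2 fold change was 0.24 in shG9a_1 (SE 0.10, unadjusted p = 0.035, adjusted p = 0.641) and 0.12 in shG9a_4 (SE 0.10, adjusted p = 1.00).

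EDEM2 had 38.8, 35.9 and 36.5 CPM with shG9a_1 and 36.4, 35.6 and 32.9 CPM with shG9a_4, against 31.1, 33.4 and 32.1 CPM in shSCR. The shG9a_1 libraries were all above those of shSCR, and 1 of 3 shG9a_4 libraries fell within their range. Its log2 fold change was 0.20 in shG9a_1 (SE 0.07, unadjusted p = 0.018, adjusted p = 0.617) and 0.12 in shG9a_4 (SE 0.07). EDEM3 had 247, 235 and 223 CPM with shG9a_1 and 221, 252 and 201 CPM with shG9a_4, against 208, 213 and 195 CPM in shSCR. Again shG9a_1 lay above shSCR without overlap and shG9a_4 did not. Its log2 fold change was 0.19 in shG9a_1 (SE 0.08, unadjusted p = 0.044, adjusted p = 0.658) and 0.13 in shG9a_4 (SE 0.08).

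The other 5 ERAD genes had log2 fold changes of −0.02 (DERL1) to 0.07 (DERL2) in shG9a_1. They are HERPUD1, which gathers the ligase complex, SEL1L and SYVN1, the adaptor and the ubiquitin ligase of that complex, and the derlins DERL1 and DERL2, which take part in the passage back to the cytosol. SEL1L, the partner through which SYVN1 receives its substrates, was at 134.6 ± 1.97 CPM in shG9a_1 and 135.6 ± 15.2 CPM in shG9a_4, against 134.3 ± 2.78 CPM in shSCR (SD, n = 3 each). For SYVN1 the log2 fold change was 0.03 in shG9a_1 and 0.11 in shG9a_4, and for HERPUD1 it was −0.01 in shG9a_1 and 0.001 in shG9a_4.

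SSR1 encodes the alpha subunit of TRAP, the complex beside the translocon that helps some proteins enter the ER. It had 371, 329 and 328 CPM with shG9a_1 and 337, 352 and 314 CPM with shG9a_4, against 312.4, 288 and 283 CPM in shSCR. Both hairpin groups lay above shSCR without overlap. The log2 fold change was 0.22 in shG9a_1 (SE 0.07, unadjusted p = 0.013, adjusted p = 0.605) and 0.18 in shG9a_4 (SE 0.07, unadjusted p = 0.031, adjusted p = 1.00). SSR2 and SSR3, its beta and gamma subunits, were at 0.04 and 0.07 in shG9a_1 and at 0.05 and −0.03 in shG9a_4 on the same scale. The pore subunits SEC61A1 and SEC61B were at 0.11 and 0.08 in shG9a_1 and at 0.04 and −0.04 in shG9a_4.

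**Figure D4:**
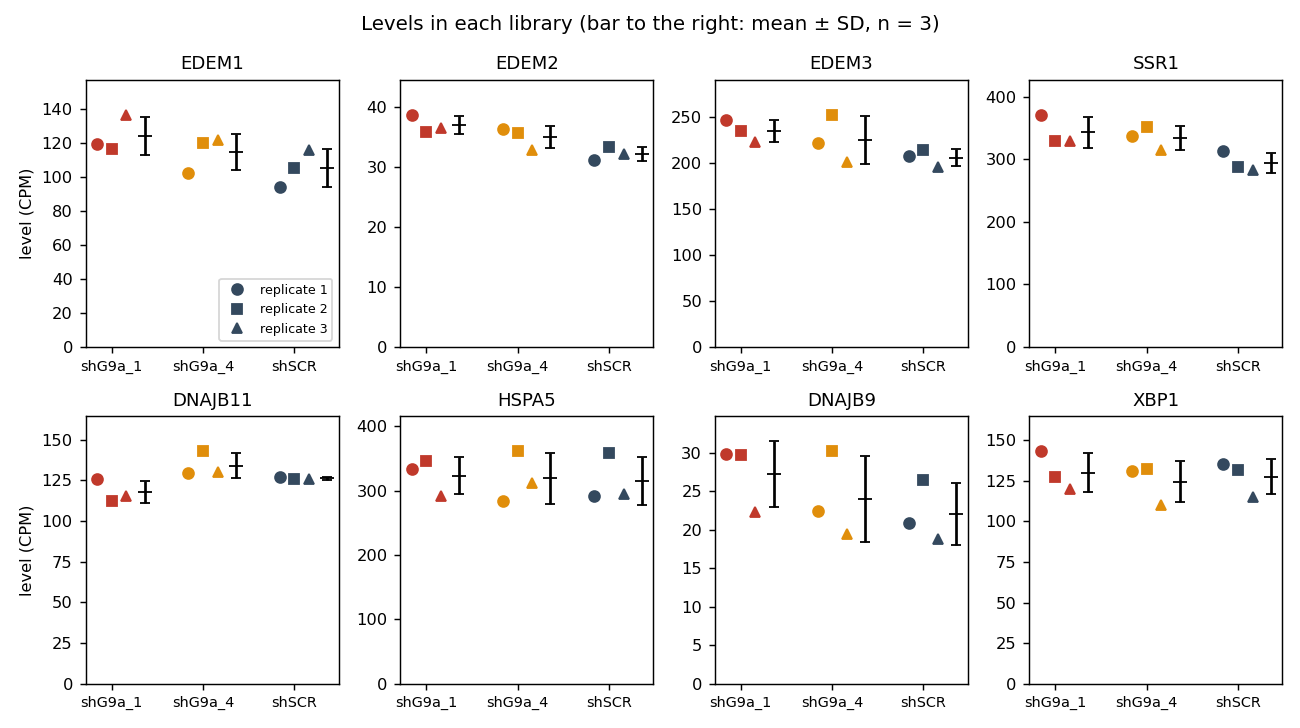
Levels of 8 genes in each library (y axis, CPM from 0), with shG9a_1 in red, shG9a_4 in orange and shSCR in dark blue, marker shapes for replicate numbers, and the mean ± SD of 3 libraries as a bar. EDEM1, EDEM2, EDEM3 and SSR1 have all shG9a_1 points above all shSCR points, DNAJB11 has all shG9a_4 points above all shG9a_1 points, and the groups of HSPA5, DNAJB9 and XBP1 overlap.

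Among the chaperones, HSPA5 had 333, 346 and 292 CPM with shG9a_1 and 284, 361 and 312 CPM with shG9a_4, against 291.3, 358 and 294.5 CPM in shSCR. The groups overlapped throughout, and replicate 2 was the highest in each of them. DNAJB9 (ERdj4), a co-chaperone of BiP known as a target of XBP1, had 29.8, 29.8 and 22.4 CPM with shG9a_1 and 22.5, 30.2 and 19.4 CPM with shG9a_4, against 20.9, 26.5 and 18.8 CPM in shSCR. Its log2 fold change of 0.31 in shG9a_1 had an SE of 0.18, an interval of −0.09 to 0.70 and an adjusted p of 0.757. The adjusted p was 0.146 with the replicate number as a block. MANF, a secreted ER stress protein, had 83.9, 73.9 and 79.5 CPM with shG9a_1 and 81.1, 88.5 and 80.7 CPM with shG9a_4, against 73.2, 77.7 and 76.6 CPM in shSCR. Its shG9a_4 libraries lay above those of shSCR (log2 fold change 0.14, SE 0.07, adjusted p = 1.00) and its shG9a_1 libraries overlapped them (0.06, SE 0.07).

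The nucleotide exchange factor HYOU1 was at 0.004 in shG9a_1 and 0.10 in shG9a_4 on the log2 scale, and HSP90B1 at −0.004 and −0.02. The BiP co-chaperone DNAJC3 was at 0.14 in each hairpin, above shSCR without overlap in shG9a_1. SDF2L1 and CRELD2, small luminal proteins of the response, were at 0.04 and 0.12 in shG9a_1 and at 0.006 and 0.04 in shG9a_4. None of these 5 genes had an interval that left out 0 in either hairpin.

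P4HB, the founding disulfide isomerase and also a subunit of collagen prolyl hydroxylase, had the smallest p of the 4 isomerases. It had 598, 616 and 548.5 CPM with shG9a_1 and 592, 526 and 541 CPM with shG9a_4, against 538, 544 and 511 CPM in shSCR. All 3 shG9a_1 libraries were above shSCR, at 548.5 against 543.6 CPM at the nearest point, and shG9a_4 overlapped. The log2 fold change was 0.15 in shG9a_1 (SE 0.07, adjusted p = 0.688) and 0.06 in shG9a_4 (SE 0.07). PDIA3, PDIA4 and PDIA6 were at 0.002, 0.10 and −0.06 in shG9a_1, and at 0.04, 0.08 and 0.02 in shG9a_4. CALR had 787, 840.1 and 855 CPM with shG9a_1 and 826, 939 and 808 CPM with shG9a_4, against 769.5, 823 and 798 CPM in shSCR. The groups overlapped in CALR, with log2 fold changes of 0.05 in shG9a_1 and 0.11 in shG9a_4 (SE 0.07 each), and in CANX, with −0.03 in shG9a_1 and 0.06 in shG9a_4.

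The sensors and XBP1 had fold changes close to 1 in both hairpins. ERN1 had 18.7, 17.8 and 19.6 CPM with shG9a_1 and 18.02, 17.7 and 18.6 CPM with shG9a_4, against 17.5, 18.7 and 19.4 CPM in shSCR, with log2 fold changes of 0.01 in shG9a_1 and −0.03 in shG9a_4 (SE 0.08 each). EIF2AK3 had 34.4, 32.6 and 33.5 CPM with shG9a_1 and 30.1, 34.8 and 30.02 CPM with shG9a_4, against 31.4, 31.8 and 33.4 CPM in shSCR, with log2 fold changes of 0.06 in shG9a_1 and −0.02 in shG9a_4 (SE 0.08 each). The groups of both genes overlapped. ATF6 had 159.8, 152.5 and 145 CPM with shG9a_1 and 147.5, 172.5 and 133 CPM with shG9a_4, against 147, 157 and 142 CPM in shSCR. ATF6B, its relative, had 31.01, 35.8 and 33.4 CPM with shG9a_1 and 34.7, 31.6 and 35.3 CPM with shG9a_4, against 33.1, 32.9 and 31.2 CPM in shSCR. The log2 fold changes in shG9a_1 and in shG9a_4 were 0.03 and 0.02 for ATF6 (SE 0.09 each) and 0.04 and 0.06 for ATF6B (SE 0.08 each), and the groups overlapped. XBP1 had 143, 127 and 119.8 CPM with shG9a_1 and 131, 132 and 110.3 CPM with shG9a_4, against 135.6, 132 and 115 CPM in shSCR. Its log2 fold changes of 0.03 in shG9a_1 and −0.03 in shG9a_4 (SE 0.10 each) are for all XBP1 mRNA, spliced and unspliced.

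In shG9a_4 over shSCR, 0 of the 33 genes passed, where 5 of 18435 genes did (0.0271%). The log2 fold change was above 0 in 27 genes (81.8%, against 50.8% of all genes), with a median of 0.05, against 0.0021 over all genes. The libraries lay above those of shSCR without overlap in DNAJB11, MANF and SSR1, which is 3 genes (9.09%; 3.25% of all genes), and SSR1 was the single gene with an unadjusted p under 0.05 (3.03%; 1.4% of all genes were higher at that p). The 2 comparisons with shSCR share its 3 libraries, so their like counts are not independent. Without shG9a_4 replicate 2, 20 genes were above 0, with a median of 0.03, and without shSCR replicate 3, 22 genes, with a median of 0.02. SSR1 no longer had an unadjusted p under 0.05 without shSCR replicate 2 or 3 or shG9a_4 replicate 1 or 2, and 2 genes of the set did without shG9a_1 replicate 2. Without shG9a_4 replicate 3 the median was 0.08 and 7 genes had an unadjusted p under 0.05. Over all genes 701 of 18872 had such a p then, against 438 of 18435 with every library.

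The hairpins were also compared with each other. The values of shSCR are in neither arm of that comparison, but its libraries share the scaling, the filter and the estimate of spread. In shG9a_4 over shG9a_1, 0 of 33 genes passed, as did 0 of 18435 (0%) by edgeR, with 754 genes at an unadjusted p under 0.05, while DESeq2 called 6 genes, none of the set. Of the 33 genes 14 were above 0 (42.4%, against 49.8% of all genes), with a median of −0.01. With a library left out the median ran −0.04 (without shG9a_4 replicate 2) to 0.02 (without shG9a_4 replicate 3), with 10 to 19 genes above 0. DNAJB11 (ERdj3), a secreted and luminal co-chaperone that hands clients to BiP, had the smallest p. It had 129.6, 143 and 129.9 CPM in shG9a_4, against 126, 113 and 116 CPM in shG9a_1, while shSCR was at 127, 126 and 126 CPM. The 3 shG9a_4 libraries lay above the 3 shG9a_1 libraries, the only gene of the set to do so (3.03%; 5.05% of all genes), with the tight shSCR libraries between their means. The log2 fold change was 0.19 (SE 0.06, unadjusted p = 0.016, adjusted p = 1.00), and no other gene of the set had an unadjusted p under 0.05 (2.19% of all genes were higher at that p).

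The SE of the fold change had a median of 0.08 (log2) for the 33 genes and 0.154 over all genes, so that small differences were measured more closely in the set than elsewhere. Once replicate number entered as a block, 143 genes passed in shG9a_1 over shSCR (0.776%), 14 in shG9a_4 (0.0759%) and 0 in shG9a_4 over shG9a_1 (0%), and again 0 of the 33 in each. The lowest adjusted p in the set was then 0.116 (EDEM1) in shG9a_1, 0.754 (SSR1) in shG9a_4 and 0.437 (DNAJB11) between the hairpins. In shG9a_1, 6 of the 33 genes had an unadjusted p under 0.05 with the block, all higher (8.1% of all genes were higher at that p): DNAJB9 and P4HB besides the 3 EDEM genes and SSR1.

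The authors' deposited tables hold 26 of the 33 genes in each comparison with shSCR, and 7 are not listed there, EDEM1 among them. In the authors' deposited table for shG9a_1, EDEM2 was the only gene of the set with a posterior probability of different expression (PPDE, a score) above 0.95, at 0.998 with a fold of 1.14, and 322 of 10748 rows (3.00%) passed that mark. In the authors' deposited table for shG9a_4, none of the set passed it, and 66 of 10745 rows did (0.614%). The linear folds of the 26 genes in the authors' deposited tables were 0.927 to 1.22 in shG9a_1 and 0.972 to 1.14 in shG9a_4. Their direction, hairpin over control, was checked against the counts: 98.1% of the genes with a log2 fold change beyond 0.3 had the same sign in shG9a_1, and 96.5% in shG9a_4.

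Genes with and without a stress element were set side by side, as a description. The 10 genes with ERSE or ERSE-II (the sequences above) had log2 fold changes of −0.06 to 0.12 in shG9a_1, with a median of 0.02 and 6 of 10 above 0. Those 10 include HSPA5, HSP90B1, CALR, HERPUD1 and XBP1, and none had an unadjusted p under 0.05 or groups without overlap in either hairpin. The 21 genes whose promoters held neither had a median of 0.07 and 20 of 21 above 0 in shG9a_1, where 50.2% of all genes were above 0. All 8 of the genes without overlap in shG9a_1 were among them (7.15% of all genes). In shG9a_4 the median was 0.02 for the 10 genes with an element, 8 of them above 0, and 0.08 for the 21 without, 17 of them above 0 (50.8% of all genes). The difference between the 2 kinds of promoter was not tested. No exact ERSE or ERSE-II was in the listed promoters of the EDEM genes, SSR1, P4HB or DNAJB9. DNAJB9 is known as a target of XBP1, so a gene without a match is not thereby outside the response.

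The libraries also differed by replicate number, which is a label on the cultures that no source ties to a day or batch. In the fit with the number as a term, 2 of 33 genes differed between numbers at an adjusted p under 0.05 (6.06%; 7.47% of all genes). They were XBP1 (adjusted p = 0.046) and its target DNAJB9 (adjusted p = 0.013). Next in the set, and not past the threshold, were EDEM1 (adjusted p = 0.069) and HSPA5 (adjusted p = 0.070). The log2 difference of EDEM1 was 0.25 for replicate 3 over replicate 1, against 0.24 for shG9a_1 over shSCR. The log2 difference of DNAJB9 was −0.52 for replicate 3 over replicate 2, against 0.31 for shG9a_1 over shSCR. That of XBP1 was −0.25 for replicate 3 over replicate 1. For replicate 2 over replicate 1 the 2 genes had opposite signs, with 0.26 for DNAJB9 and −0.065 for XBP1. The 3 libraries numbered 2 lay above the other 6 in HSPA5 and HERPUD1 (6.06%; 3.22% of all genes). The 3 numbered 3 lay below the other 6 in HYOU1, PDIA4, ATF6 and XBP1 (12.1%; 7.21% of all genes).

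**Figure D5:**
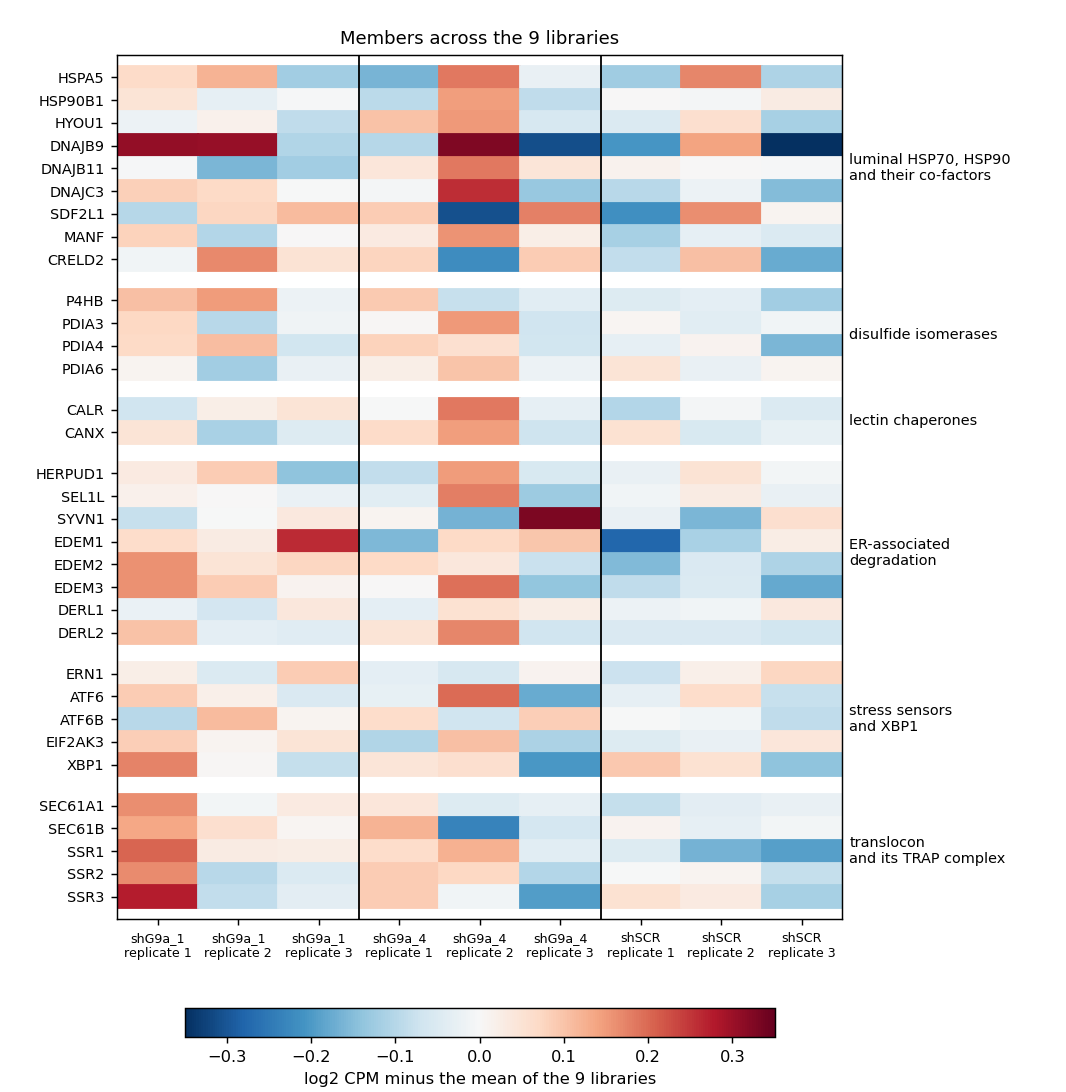
Log2 CPM of each of the 33 genes minus its mean over the 9 libraries (colour scale), with libraries in columns by group and genes in rows by role. The shG9a_4 replicate 2 column is red for most genes, and DNAJB9 shows the widest spread between libraries.

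Single libraries also stood apart. Replicate 2 of shG9a_4 held the highest of the 9 values in 18 of the 33 genes and the lowest in 4, while no shSCR library held the highest value of any gene of the set. Such highest and lowest values were not counted over all genes. That replicate also stood apart beyond the set. Chi-square per degree of freedom between replicates of a group was 59.1 and 78.9 for its pairs, against 25.2 to 37.9 for the others. The lowest values were spread over 8 libraries, with 7 each in shSCR replicate 3 and shG9a_4 replicate 3. From lowest to highest library the genes spanned 1.08-fold (DERL1) to 1.61-fold (DNAJB9), with a median of 1.22-fold.

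Other genes of the pathway gave the setting, and 0 of them passed an adjusted p of 0.05 in any comparison, with or without the block. Over all genes, 50.2% were above 0 in shG9a_1 and 50.8% in shG9a_4. In the PERK and ATF4 branch, which responds to amino acid shortage as well as to ER stress, 10 of 16 genes were below 0 in shG9a_1 (median −0.05) and 10 of 16 in shG9a_4 (median −0.05). The smallest p there was that of ASNS, asparagine synthetase, with 47.5, 45.2 and 42.6 CPM with shG9a_1 and 50.95, 50.6 and 48.6 CPM with shG9a_4, against 65.1, 50.8 and 52.8 CPM in shSCR. Its shG9a_1 libraries lay below those of shSCR, where replicate 1 was high (log2 fold change −0.32, SE 0.09, adjusted p = 0.564; −0.17 in shG9a_4). ATF4 itself was the other of 2 genes of the 16 below shSCR without overlap in shG9a_1 (7.53% of all genes), and 1 lay above (7.15%). The log2 fold change of ATF4 was −0.28 in shG9a_1 (SE 0.09, adjusted p = 0.605) and −0.08 in shG9a_4. Other ER folding enzymes were above 0 in 22 of 31 genes in shG9a_1 and 24 of 31 in shG9a_4. Their smallest p was that of FKBP9, an ER prolyl isomerase, with 100.3, 96.3 and 88.2 CPM with shG9a_1 and 88.6, 99.9 and 77.2 CPM with shG9a_4, against 70.1, 83.2 and 74.9 CPM in shSCR (log2 fold change 0.32 in shG9a_1, SE 0.10, adjusted p = 0.592; 0.22 in shG9a_4). The shG9a_1 libraries of FKBP9 lay above those of shSCR, and those of shG9a_4 overlapped them.

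The remaining ERAD genes were above 0 in 16 of 22 in shG9a_1 and 18 of 22 in shG9a_4, and DERL3, the derlin of secretory cells, had too few reads to test. NPLOC4, a cofactor of the extracting ATPase VCP, had log2 fold changes of 0.18 in shG9a_1 and 0.09 in shG9a_4. The other translocon and signal peptide genes were above 0 in 14 of 20 in shG9a_1 and 10 of 20 in shG9a_4, with SRPRB, a subunit of the signal recognition particle receptor, at 0.14 in shG9a_1 and 0.10 in shG9a_4. The oligosaccharyltransferase, which attaches sugars to new proteins, was above 0 in 9 of 12 in each hairpin, with its subunit MAGT1 at 0.12 in shG9a_1 and 0.08 in shG9a_4. Regulators of the sensors were above 0 in 9 of 15 in shG9a_1 and 5 of 15 in shG9a_4, with NUCB2 at 0.29 in shG9a_1 and 0.09 in shG9a_4, and ERN2 and CREB3L1 were not tested for low counts.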

How the data were processed

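Stranded total RNA, depleted of ribosomal RNA and read as pairs of 75 bases per the labels, was measured in 9 cultures of 3 groups. The authors deposited whole-number counts of reads per gene in the layout of STAR, and the submitters' processing notes list DESeq, R 3.3.1, edgeR 3.14.0 and STAR 2.5.2a without a role. The notes also name GRCh37 and hg19. No source used here states the annotation release. Counts came from the reverse-strand column, where 94.7 to 95.1% of stranded reads lay. That layout counts only reads mapped to a single place. Pseudogenes named after one of the 33 genes reached at most 7.19 CPM (PDIA3P1), and pseudogenes under other names were not looked up. Rows that name no gene were left out. Reads outside genes made up 12.2 to 15.4%, ambiguous ones 2.49 to 2.68%, multimapping ones 4.57 to 5.49% and unmapped ones 2.75 to 4.34%. A gene name table gave symbols for 55277 of 60308 identifiers and GENCODE release 29 for 421 more, together carrying 99% of reads. In the authors' deposited tables, PPDE is a score from 0 to 1 and PostFC and RealFC are linear fold ratios, per the file headers.

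Genes were tested with edgeR 4.0.16 (R 4.3.3), by its two-sided quasi-likelihood F-test with TMM scaling, the filterByExpr filter and Benjamini-Hochberg adjustment over 18435 genes. All 9 libraries were fitted together with 6 residual degrees of freedom. Every p of a gene comes from that fit unless another is named, and SEs and 95% intervals of fold changes from the same fit. The main fit was tested on simulated counts, with changes larger than those of the set and no effect of replicate number. Alternatives were other scalings, DESeq2 1.42.0, edgeR's likelihood ratio test, voom (limma 3.58.1), no filter, unstranded counts, the replicate block, only the groups compared, and leaving out each library. TPM used the joined exon lengths of GENCODE release 29, which is on another build than the counts. No pair of replicates was a duplicate (chi-square per degree of freedom 25.2 to 78.9).

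The replicate numbers of the labels were taken to pair the libraries: for the 9 same-numbered pairs the correlation of deviations from the group mean ran 0.178 to 0.461, above the mark of 0.1 in each. Results are from the fit without the number, and the fit with it as a block has 4 residual degrees of freedom. The genes, their roles and the lists of other pathway genes were chosen with earlier results of these data known. Values per library are given for HSPA5, the sensors and XBP1, genes with an unadjusted p under 0.05, genes past an adjusted threshold and the gene of smallest p in each role. In the lists of other pathway genes, the gene of smallest p is named. Other genes are given by range and count, and any singled out there were chosen after their values were seen.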

Additional observations from a re-analysis of the deposited data

How the results depend on the processing

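None of the 33 genes passed an adjusted p of 0.05 between groups under any of the 18 alternatives. The count over all genes moved. In shG9a_1 over shSCR it was 7, against 80 with DESeq2, 42 with the likelihood ratio test, 288 without a filter and 143 with the replicate block, and 0 to 10 with a library left out. In shG9a_4 over shSCR it was 5, against 21 with DESeq2, 17 with the likelihood ratio test, 49 without a filter, 1 with unstranded counts, 14 with the replicate block and 0 with only the groups compared, and 0 to 7 with a library left out. In shG9a_4 over shG9a_1 it was 0, against 6 with DESeq2, 5 with the likelihood ratio test and 106 without a filter. Between replicate numbers, 1377 genes and 2 of the 33 passed, against 2874 and 5 without a filter, and 1 of the 33 with RLE scaling or unstranded counts. The replicate block changed no call of a gene of the set. Signs with a library left out were followed only for the genes of the set with values per library, and not for the others. Among those followed, these log2 fold changes took both signs. In shG9a_1 over shSCR they were HSPA5 (−0.0122 to 0.145), ATF6B (−0.0076 to 0.098), ERN1 (−0.0262 to 0.0521) and XBP1 (−0.0419 to 0.084). In shG9a_4 over shSCR they were HSPA5 (−0.0859 to 0.114), ATF6 (−0.0905 to 0.111), DNAJB9 (−0.0827 to 0.267), EIF2AK3 (−0.104 to 0.0184) and XBP1 (−0.111 to 0.0531). In shG9a_4 over shG9a_1 they were HSPA5 (−0.127 to 0.0566), ATF6 (−0.126 to 0.0676), ATF6B (−0.0366 to 0.0748), CALR (−0.0247 to 0.09), EDEM3 (−0.161 to 0.0086), SSR1 (−0.081 to 0.0194) and XBP1 (−0.118 to 0.0166). With upper quartile scaling ERN1 was at −0.0001 in shG9a_1. The cause of these shifts was not tested.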

Other observations

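ER export and cytosolic chaperones, lists beside the ER folding genes, were measured in the same fit, and 0 genes of either passed an adjusted p of 0.05 in any comparison, with or without the replicate block. The machinery of ER export and retrieval, the COPII coat and its cargo receptors, had 16 of 18 genes above 0 in shG9a_1 over shSCR (50.2% of all genes), with a median log2 fold change of 0.11, and 6 genes above shSCR without overlap (7.15% of all genes). In shG9a_4 it had 13 of 18 above 0 (50.8% of all genes), with a median of 0.02 and no gene above without overlap (3.25% of all genes). SAR1A, the GTPase that starts a COPII coat, had 221, 215.5 and 229 CPM with shG9a_1 and 195, 224 and 202 CPM with shG9a_4, against 187, 206.5 and 204 CPM in shSCR. Its log2 fold change was 0.16 in shG9a_1 (SE 0.07, adjusted p = 0.658) and 0.06 in shG9a_4 (SE 0.07).

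Cytosolic chaperones leaned the other way, with 10 of 16 genes below 0 in each hairpin and medians of −0.03 in shG9a_1 and −0.02 in shG9a_4. In each hairpin 37.5% of them were above 0, against 50.2% of all genes in shG9a_1 and 50.8% in shG9a_4. In shG9a_1, 5 of the 16 lay below shSCR without overlap (7.53% of all genes): HSPH1, HSP90AB1, CCT2, CCT5 and STIP1, with log2 fold changes of −0.15 (CCT2) to −0.10 (CCT5). In shG9a_4 this was 1 gene, HSP90AB1 (−0.05), and the share of all genes below shSCR there was not counted. HSPA1A was the 1 gene of the list above shSCR without overlap in either hairpin. That is 6.25% in each, against 7.15% of all genes in shG9a_1 and 3.25% in shG9a_4. The heat-inducible HSPA1A was the gene of smallest p, with 54.3, 69.8 and 66.2 CPM with shG9a_1 and 63.4, 55.9 and 62.6 CPM with shG9a_4, against 52.4, 53.2 and 52.2 CPM in shSCR. Its libraries lay above shSCR in both hairpins, with log2 fold changes of 0.27 in shG9a_1 (SE 0.09, adjusted p = 0.605) and 0.20 in shG9a_4 (SE 0.09, adjusted p = 1.00). HSPA1B is a near-identical copy, so reads of the pair may have been divided or lost in counting.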
